A study of Mus musculus with 2 samples.

Results

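The genes described here encode adhesion proteins and regulators of the epithelial-mesenchymal transition (EMT). They are 10 in number and fall into 3 roles: the epithelial adhesion genes *Cdh1* and *Epcam*, the mesenchymal markers *Cdh2* and *Vim*, and the transcription factors *Snai1*, *Snai2*, *Zeb1*, *Zeb2*, *Twist1* and *Twist2*. They were listed by name and role, with earlier results of these data known. Through the transcript accession that each probe carries, 12 probes on the arrays were matched to them, of 55681 probes for 37018 genes and unnamed transcripts. At least 1 probe of each gene was bright enough to be tested, and 11 of the 12 probes passed, among 33012 probes tested in all.

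Expression was measured in mouse embryonic stem cells (mESCs) of the genotype AIMP3f/f;cre-ERT2, which were derived from blastocysts. *AIMP3*, named *Eef1e1* in gene annotation, encodes a scaffold protein of the multi-tRNA synthetase complex. Its alleles are flanked by loxP sites in all of these cells, controls included, and a tamoxifen-inducible Cre recombinase removes the flanked part. AIMP3-depleted mESCs received 2 μM tamoxifen (4-OHT) for 4 days and control mESCs received ethanol, both in medium with the cytokine LIF. RNA of 2 AIMP3-depleted replicates was labelled with Cy5, each on 1 Agilent array, while RNA of both control replicates was pooled, labelled with Cy3 and put on both arrays. The control is thus 1 sample whose own spread was not measured. Tamoxifen, Cre activity and loss of AIMP3 came together in this design and cannot be told apart, and neither can depletion and a difference between dyes at a given gene, since the dyes were never swapped. The labels place the cells on mouse embryonic fibroblast (MEF) feeder layers in general, and the study's methods give MEF-conditioned medium for incubation with drugs. Nothing in the labels says whether the replicates were separate cultures or clones, so every p-value measures only the spread between these 2 samples.

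E-cadherin, encoded by *Cdh1*, and EpCAM hold epithelial cells together at their lateral surfaces, and mESCs carry both. In EMT, cells give up this adhesion, often exchange E-cadherin for the N-cadherin encoded by *Cdh2*, build an intermediate filament network from vimentin (*Vim*) and become motile. Transcription factors of the SNAI and ZEB families are zinc finger proteins that bind E-box sequences in epithelial promoters and repress them, and TWIST proteins are basic helix-loop-helix factors that bind E-boxes as dimers. In the early embryo, EMT takes place at gastrulation and when parietal endoderm forms from primitive endoderm.

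In AIMP3-depleted mESCs both mesenchymal markers and 5 of the 6 transcription factors rose, while neither epithelial adhesion gene passed the 1.5-fold threshold. *Vim* rose 2.67-fold, *Cdh2* 2.42-fold and *Zeb2* 2.40-fold, followed by *Snai2* at 1.88-fold, *Twist2* at 1.77-fold, *Snai1* at 1.68-fold and *Zeb1* at 1.64-fold. *Twist1* was 1.35-fold higher and did not pass. *Cdh1*, the adhesion gene that SNAI and ZEB proteins are best known to repress, was 1.07-fold lower, did not pass and changed sign when each array was centred on its median in place of loess. *Epcam* was 1.22-fold lower. A gene is said here to have risen or fallen when it changed by more than 1.5-fold (0.58 on the log2 scale) with an unadjusted p under 0.05, which is the study's threshold, applied with limma's moderated test of the mean log2 ratio against 0. By this rule 7 of the 10 genes rose and 0 fell, against 5.52% of all 24021 tested genes that rose and 0.791% that fell. By a Benjamini-Hochberg adjusted p under 0.05 at any fold, *Twist1* joins the genes that were higher, which makes 8, and *Epcam* is the 1 that was lower, but this rule passes 30.6% of all tested genes as higher and 23.7% as lower. In RNA of whole cultures, more cells of a type and more RNA per cell cannot be told apart, and markers of other cell types moved with these genes, as given below.

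RefSeq promoter windows (assembly GRCm38.p6, 250 bases before to 50 bases after the transcription start) were matched to 6 of the 10 genes, in 9 windows. The windows of 3 genes are shown because they hold the contrast between an epithelial gene, a SNAI gene and a mesenchymal marker. They are printed 5′ to 3′ on the gene's strand, and capitals mark the E-box that SNAI and ZEB proteins bind, CAGGTG or its reverse complement CACCTG.
Epcam promoter, chr17:87635729-87636028, plus strand: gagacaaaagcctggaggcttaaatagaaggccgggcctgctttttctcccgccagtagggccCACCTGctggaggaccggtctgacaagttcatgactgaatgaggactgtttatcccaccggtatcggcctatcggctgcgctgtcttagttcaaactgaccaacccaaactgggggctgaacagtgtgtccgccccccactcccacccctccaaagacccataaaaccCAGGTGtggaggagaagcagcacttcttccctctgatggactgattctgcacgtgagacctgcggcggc
Snai1 promoter, chr2:167537945-167538244, plus strand: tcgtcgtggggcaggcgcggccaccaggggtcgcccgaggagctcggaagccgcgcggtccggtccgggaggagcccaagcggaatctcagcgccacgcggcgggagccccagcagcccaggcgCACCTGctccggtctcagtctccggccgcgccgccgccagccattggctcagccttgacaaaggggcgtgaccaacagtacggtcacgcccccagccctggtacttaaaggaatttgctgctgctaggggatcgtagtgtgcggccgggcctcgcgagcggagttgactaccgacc
Vim promoter, chr2:13574061-13574360, plus strand: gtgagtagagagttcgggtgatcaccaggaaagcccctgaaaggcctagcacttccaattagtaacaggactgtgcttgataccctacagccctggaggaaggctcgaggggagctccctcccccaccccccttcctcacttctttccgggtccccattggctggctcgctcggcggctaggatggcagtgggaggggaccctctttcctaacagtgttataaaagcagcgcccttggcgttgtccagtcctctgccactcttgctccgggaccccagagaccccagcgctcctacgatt
The *Epcam* window holds this E-box at 2 places, bases 64 to 69 and 232 to 237 counted from the first base printed. The *Snai1* window holds it at 1 place, bases 125 to 130, and the *Vim* window at 0. The windows of *Twist1*, *Twist2* and *Zeb2* (4 windows for *Zeb2*) hold 0 as well. Of all 32851 mouse promoter windows of this length, 20.2% hold CAGGTG or CACCTG at least once and 2.88% at least at 2 places. A wider search for any E-box (CANNTG, which takes in both forms) finds 3 in *Epcam*, 1 in *Snai1* and 0 in *Vim*, where 72.3% of all windows hold at least 1. A match describes the letters of the window and is not a measured binding site. *Cdh1*, *Cdh2*, *Snai2* and *Zeb1* were not matched to a window.

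Of the 62976 spots of an array, 59305 measured transcripts, and between 59.3% and 60.6% of those were well above background in a channel, with 0 saturated. The median signal over local background was between 2.68 and 3.31, and precision is limited by having 2 arrays, which shared 1 slide and 1 scan. The median SD between both arrays was 0.048 over all tested genes on the log2 scale. All ratios are AIMP3-depleted over control, so that a positive value is higher after depletion, whereas the study's methods word their ratio the other way round, as control over test. *Eef1e1*, the targeted gene, had log2 ratios of -0.90 and -0.90 (mean -0.90 ± 0.0067, SD, n = 2, adjusted p = 5.10e-05), that is, it fell in both AIMP3-depleted replicates. Where its probe lies relative to the deleted part of the gene is not given in the sources used here.

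The epithelial adhesion genes come first. *Cdh1* was printed on 10 spots per array, and their log2 ratios lay between -0.14 and -0.05 on the array of replicate 1 and between -0.16 and -0.07 on that of replicate 2. The means of the spots were -0.10 and -0.11, which gives a mean of -0.10 ± 0.0021 (SD, n = 2, SE 0.044, adjusted p = 0.0865). After normalization the *Cdh1* level was 14.73 and 14.75 in the control pool and 14.63 and 14.65 in the AIMP3-depleted replicates, on the log2 intensity scale. The depleted replicates were thus slightly below the control on both arrays with this normalization, the difference did not pass the test, and *Cdh1* stood above 29.2% of all tested genes in its ratio. Genes of like brightness read much the same, since the 448 genes within 0.25 of *Cdh1* in mean log2 intensity had median log2 ratios of -0.07 and -0.08.

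The sign of the *Cdh1* ratio depends on how the dyes are balanced. Before any normalization its background-subtracted signal was higher in Cy5 by 0.78 and 0.51 on the log2 scale, but the median gene was also higher in Cy5, by 0.77 and 0.49. With each array centred on its median in place of the intensity-dependent loess curve, *Cdh1* came to 0.24 and the median of all tested genes to 0.18, against 0.02 with loess, so *Cdh1* turned positive but lay only 0.06 above the median gene. In the authors' deposited table it was -0.01. With median centring the limma adjusted p of *Cdh1* was 0.00107 for the higher value, and with loess the methods' t-test gave an unadjusted p of 0.00923 for the lower one. None of the normalized ratios of *Cdh1* reached 1.5-fold in either direction.

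*Epcam* encodes a homophilic adhesion molecule of epithelia and of pluripotent cells. Its control levels were 12.40 and 12.33 and its levels in the AIMP3-depleted replicates 12.09 and 12.07 on the log2 intensity scale, so both depleted replicates lay below both control measurements. The log2 ratios were -0.30 and -0.26 (mean -0.28 ± 0.028, SD, n = 2, adjusted p = 0.00252). *Epcam* stood above 9.14% of all tested genes in its ratio, and it was lower than *Cdh1* on both arrays. Its mean ratio ranged from -0.37 with the scanner software's processed signals to -0.05 with median centring, negative in all 8 ways of processing and short of 1.5-fold in all.

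**Figure D1:**
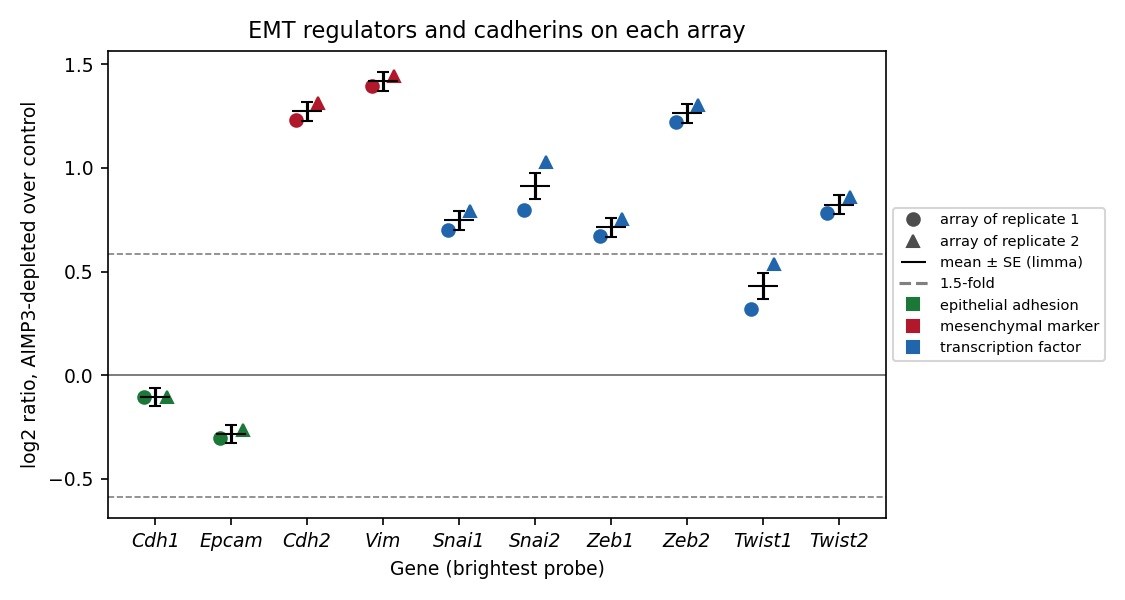
Log2 ratio of AIMP3-depleted over control (vertical axis) for the brightest probe of each of the 10 genes (horizontal axis), with a circle for the array of replicate 1 and a triangle for that of replicate 2; black bars show the mean ± SE from limma (n = 2) and dashed lines 1.5-fold. Both epithelial adhesion genes lie just below 0 (*Cdh1* above it with median centring in place of loess), *Twist1* lies between 0 and the upper line, and the other 7 genes lie above the line on both arrays.

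The mesenchymal markers had the highest mean ratios among the 10 genes as processed here, whereas *Zeb2* stood highest with the processed signals and in the deposited table. *Vim* encodes vimentin, the intermediate filament protein of mesenchymal cells. Its control levels were 13.33 and 13.34, and its levels in the AIMP3-depleted replicates were 14.72 and 14.78 on the log2 intensity scale. The channels did not overlap, and the log2 ratios of 1.39 and 1.44 gave a mean of 1.42 ± 0.035 (SD, n = 2, adjusted p = 3.54e-05). *Vim* ranked 41st from the top of all 24021 tested genes. The raw signal of the control pool was 7852 and 8320 against a local background of 42 and 47, so *Vim* was far above background in control cells as well.

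*Cdh2* encodes N-cadherin, the cadherin of mesenchymal and neural cells. It was measured by 2 probes. The brighter one read 10.85 on both arrays in the control pool and 12.08 and 12.16 in the AIMP3-depleted replicates, which gives log2 ratios of 1.23 and 1.31 (mean 1.27 ± 0.056, SD, n = 2, adjusted p = 3.54e-05) and rank 92 from the top. The second *Cdh2* probe had log2 ratios of 1.10 and 1.26, with a mean of 1.18 ± 0.11 (SD, n = 2). Both probes were thus higher after depletion on both arrays, and their values overlapped. The raw control signals of the brighter *Cdh2* probe were 1454 and 1495, against 5774 and 5217 in the AIMP3-depleted replicates. Of this pair of cadherins, *Cdh2* rose and *Cdh1* did not pass in either direction.

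**Figure D2:**
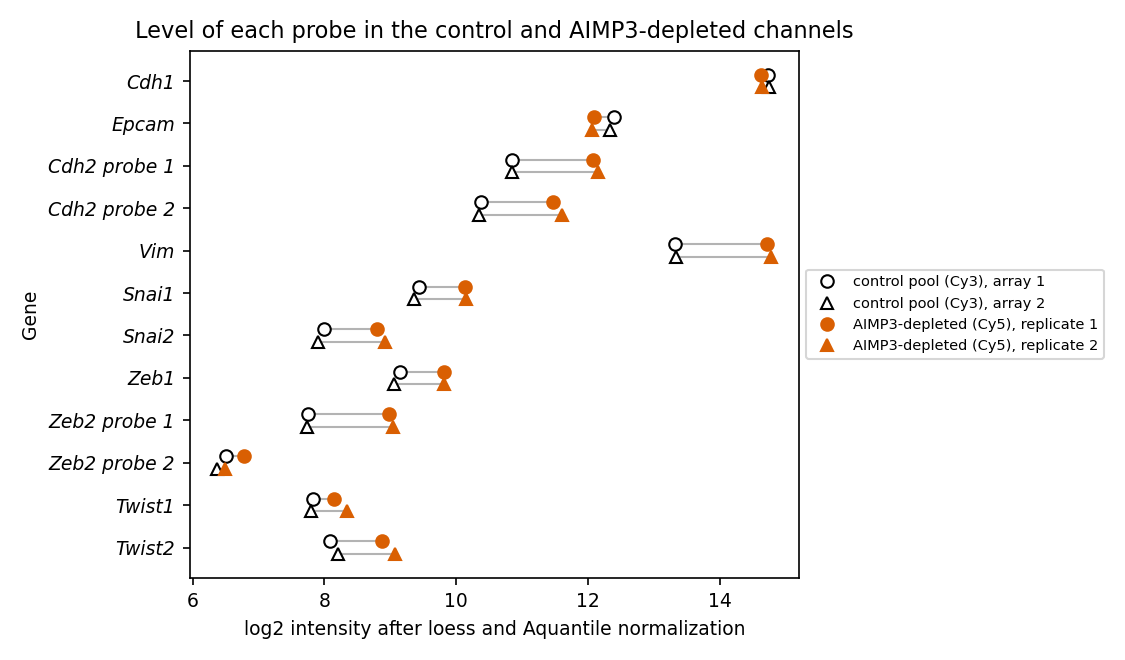
Log2 intensity after normalization (horizontal axis) of all 12 probes of the 10 genes (vertical axis), with open symbols for the control pool in Cy3, filled symbols for the AIMP3-depleted replicates in Cy5, circles for the first array and triangles for the second. The control readings of 1 pool on both arrays lie close together, the filled symbols lie to the right of the open ones for the tested probes of *Cdh2*, *Vim* and the transcription factors and to the left for *Cdh1* (whose sign turns with median centring) and *Epcam*, and the second *Zeb2* probe, which was not tested, lies at the dim end with filled and open symbols mixed.

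Of the transcription factors, *Zeb2* had the highest ratio. It encodes a zinc finger and homeodomain repressor that is required when embryonic stem cells leave pluripotency. Its raw signal was 180 and 178.5 in the control pool over a local background of 63 and 61, and 636.5 and 577.5 in the AIMP3-depleted replicates over 66 and 65. *Zeb2* was dim in the control pool, yet the scanner software flagged it as well above background there on both arrays. Its log2 ratios were 1.22 and 1.30 (mean 1.26 ± 0.061, SD, n = 2, adjusted p = 3.54e-05), at rank 100. A second *Zeb2* probe was not well above background in any channel and was not tested, and its log2 ratios were 0.28 and 0.11. Whether it detects the same transcripts is not given in the sources used here. *Zeb1*, the other member of the family, rose too. Its control signals were 455.5 and 444 and its depleted signals 1174 and 1006, and the log2 ratios were 0.67 and 0.75 (mean 0.71 ± 0.058, SD, n = 2, adjusted p = 0.000107). The ratios of the 2 ZEB genes did not overlap, with *Zeb2* above *Zeb1* on both arrays.

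The SNAI genes both rose. *Snai1*, which encodes the repressor needed for EMT at gastrulation, had control signals of 553.5 and 544 and depleted signals of 1474 and 1275. Its log2 ratios were 0.70 and 0.79 (mean 0.75 ± 0.064, SD, n = 2, adjusted p = 9.69e-05). *Snai2*, which encodes the SLUG protein of neural crest and mesenchyme, was dimmer, with control signals of 189 and 180 over a local background of 40 and 41 and depleted signals of 551.5 and 524. Its log2 ratios were 0.80 and 1.03, the widest gap between arrays among the 10 genes (mean 0.91 ± 0.16, SD, n = 2, adjusted p = 0.000129). Both arrays put *Snai2* above 1.5-fold. With the methods' t-test, which uses only the spread of 2 values for each gene, the unadjusted p of *Snai2* was 0.0794 and it did not pass.

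The TWIST genes encode basic helix-loop-helix factors of mesoderm and its derivatives. *Twist2* had control signals of 216 and 248 and depleted signals of 590 and 587. Its log2 ratios were 0.78 and 0.86 (mean 0.82 ± 0.055, SD, n = 2, adjusted p = 6.96e-05). *Twist1* had control signals of 185 and 181.5 and depleted signals of 343 and 345.5, and its log2 ratios were 0.32 and 0.54 (mean 0.43 ± 0.15, SD, n = 2, adjusted p = 0.00176). *Twist1* was higher on both arrays but short of 1.5-fold on both, and it stood above 90.0% of all tested genes in its ratio. In the authors' deposited table it came closest to the threshold, at 0.583 against 0.585 on the log2 scale. The 2 TWIST genes did not overlap in their ratios.

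In order of the mean ratio the genes ran *Vim*, *Cdh2*, *Zeb2*, *Snai2*, *Twist2*, *Snai1*, *Zeb1*, *Twist1*, *Cdh1* and *Epcam*. This order was the same on each array, but across the arrays the values of *Cdh2* and *Zeb2* overlapped, as did those of *Snai2* with *Twist2*, *Twist2* with *Snai1*, and *Snai1* with *Zeb1*. It also depends on the processing. *Zeb2* was above *Vim* with the processed signals, at 1.64 against 1.47, and in the deposited table, at 1.68 against 1.51. *Snai2* was level with *Cdh2* in both, at 1.24 and 1.24 and at 1.28 and 1.28. *Twist1* lay below *Zeb1* and above *Cdh1* without overlap, and *Cdh1* above *Epcam*. The control pool was read on both arrays, and between these readings the 11 tested probes differed by at most 0.12 on the log2 scale, in *Twist2*. The median log2 ratio was 0.78 over all 10 genes, 1.34 over the mesenchymal markers, 0.78 over the transcription factors and -0.19 over the epithelial adhesion genes, beside 0.02 over all tested genes. The levels of the 10 genes were not set against each other, because probes differ in how brightly they report.

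**Figure D3:**
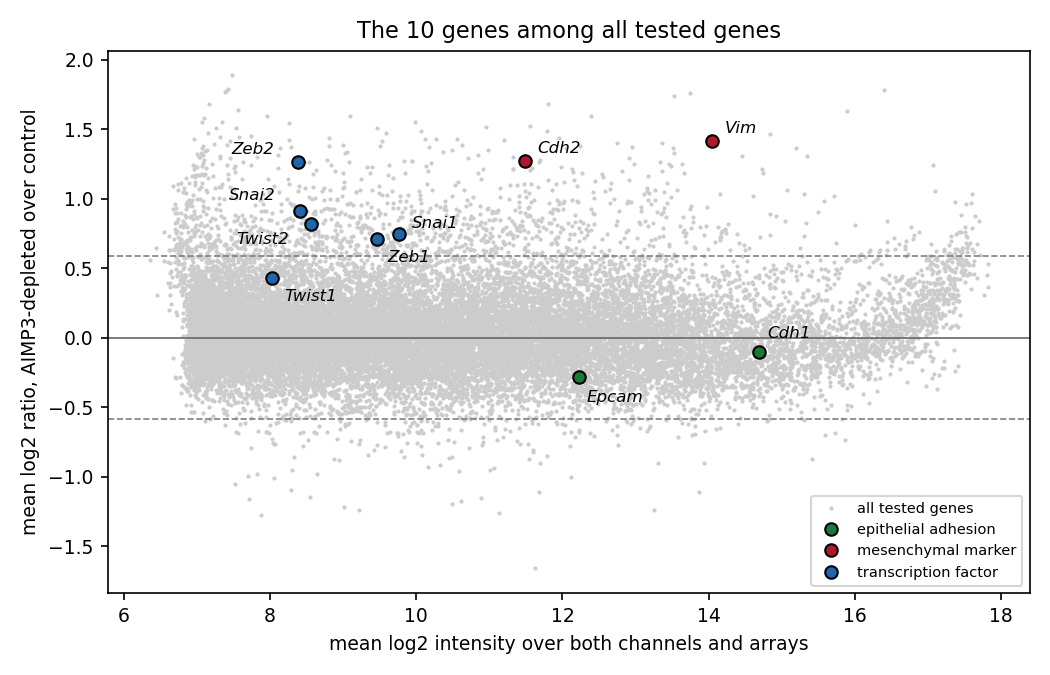
Mean log2 ratio of AIMP3-depleted over control (vertical axis) against mean log2 intensity over both channels and arrays (horizontal axis) for all 24021 tested genes in grey and the 10 genes in colour, with dashed lines at 1.5-fold. *Vim* and *Cdh2* stand high at the bright and middle part of the range, the transcription factors lie at the dim part, and *Cdh1* and *Epcam* lie within the grey cloud.

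The remaining cadherins showed no common direction, and the sign of their median depended on the processing. Of 21 other classical and related cadherin genes, 13 were bright enough to be tested, 1 rose and 0 fell, a share of 7.69% beside 5.52% of all tested genes. With the processed signals 2 rose and 1 fell, as with the deposited values, and without background subtraction 2 rose and 0 fell. The median log2 ratio was 0.03, and 0.17 with median centring. It turned negative in both of these, without the filter on dim probes and, at -0.01, without background subtraction. *Cdh11*, a cadherin of mesenchyme and bone, rose with log2 ratios of 0.82 and 0.86 on its brightest probe (mean 0.84 ± 0.026, SD, n = 2, adjusted p = 5.88e-05), but its other probe read -0.07 and the gene did not pass as the mean of its probes. P-cadherin (*Cdh3*) had a mean ratio of -0.04 and VE-cadherin (*Cdh5*) of 0.31. M-cadherin (*Cdh15*) was at -0.43 and did not pass.

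Of 16 genes for partners of the cadherins in the adherens junction 14 were tested, 1 rose and 0 fell, a share of 7.14% beside 5.52% of all tested genes. Their median was 0.08, and with median centring it was 0.30 with 3 rises, against 0.03 and 2 rises with the processed signals. Vinculin (*Vcl*), which ties the junction and focal adhesions to actin, rose with log2 ratios of 0.63 and 0.63 (mean 0.63 ± 0.0063, SD, n = 2, adjusted p = 0.00013), while its second probe was at 0.57. The catenins did not pass, with mean ratios of 0.15 for β-catenin (*Ctnnb1*), 0.34 for α-catenin (*Ctnna1*) and 0.40 for p120 catenin (*Ctnnd1*). The lowest of the partners was *Lima1*, which links the junction to actin, at -0.48.

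Desmosomes are the other cell-cell junction built on cadherins, and they anchor keratin filaments in epithelia. Of 9 desmosome genes 8 were tested, 3 rose and 0 fell, a share of 37.5% beside 5.52% of all tested genes. The median log2 ratio was 0.52, and 0.46 with only probes bright in both channels. Desmoplakin (*Dsp*) had a mean of 1.18 ± 0.030 (SD, n = 2, adjusted p = 3.54e-05) on its brightest probe and 0.51 on the other. *Perp* followed at 1.02 ± 0.071 (SD, n = 2, adjusted p = 4.93e-05) and the desmosomal cadherin *Dsc2* at 0.90 ± 0.092 (SD, n = 2, adjusted p = 7.03e-05). The other 5 did not pass, and the lowest of them, *Pkp4*, was at -0.13. *Pkp1*, at 0.583, lay just short of the threshold of 0.585. It was well above background on 0 arrays in the control pool, so its 1.498-fold is an at-least value. There were 4 rises without background subtraction, with the processed signals, with median centring and in the deposited table.

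Of 20 genes that set the epithelial state 18 were tested. Of these 0 rose and 0 fell, beside 5.52% and 0.791% of all tested genes, and the median was 0.13. With the processed signals 1 fell, without replicate 1 there was 1 rise by fold alone, and with median centring the median was 0.36. The second probe of *Prss8* was at 0.73, where its brightest one was at 0.28. By adjusted p at any fold 10 of the 18 were higher and 4 lower, beside 30.6% and 23.7% of all tested genes. The lowest ratio was that of *Rab25*, a small GTPase of epithelial recycling endosomes, at -0.46. The epithelial splicing regulators went opposite ways, with *Esrp1* at -0.37 and *Esrp2* at 0.33, and *Grhl2*, a transcription factor that activates *Cdh1*, was at -0.08.

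The mesenchymal side of EMT was read from its effectors and further transcription factors. Of 22 mesenchymal effectors, all of them tested, 13 rose and 0 fell, a share of 59.1% beside 5.52% of all tested genes. Their median log2 ratio was 0.77. The highest were *Cald1*, which encodes the actin-binding caldesmon, at 1.49 ± 0.12 (SD, n = 2), the smooth muscle gene *Tagln* at 1.47 ± 0.12 (SD, n = 2) and the metastasis-associated *S100a4* at 1.40 ± 0.096 (SD, n = 2), each with an adjusted p of 3.54e-05. Fibronectin (*Fn1*), a classical EMT marker, was at 0.43 and did not pass, and the gelatinases *Mmp2* at 0.01 and *Mmp9* at 0.24 did not pass either. Of 16 other EMT transcription factors, all tested, 4 rose and 0 fell, a share of 25% beside 5.52% of all tested genes. Their median was 0.38. Across the 8 ways of processing 3 to 6 rose, with medians from 0.27 to 0.49. *Hmga2*, a chromatin protein that acts upstream of *Snai1*, had log2 ratios of 1.34 and 1.53 (adjusted p = 3.68e-05). *Foxq1* at 0.85, *Prrx1* at 0.75 and *Foxc2* at 0.67 completed the group, with *Prrx1* at 0.47 on its other probe and *Foxc2* above background on 1 of 2 arrays in the control channel. *Snai3* was at 0.05, so the third SNAI gene did not pass.

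Transforming growth factor β (TGFβ) is the best known inducer of EMT. Of 20 genes for EMT signals and their receptors 19 were tested, 5 rose and 0 fell. This is a share of 26.3% beside 5.52% of all tested genes. The median was 0.28, and with median centring 8 rose with a median of 0.46. The ligands *Tgfb3* at 0.86 ± 0.028 (SD, n = 2, adjusted p = 5.60e-05) and *Tgfb2* at 0.80 ± 0.13 (SD, n = 2, adjusted p = 0.000136) rose, and *Tgfb1* at 0.28 did not pass. Among the receptors *Tgfbr2* rose, at 0.91 ± 0.0012 (SD, n = 2, adjusted p = 5.04e-05) on its brightest probe, with 0.34 on the other, and so did the co-receptor *Tgfbr3*, at 0.65 ± 0.063 (SD, n = 2, adjusted p = 0.00015), while *Tgfbr1* was at 0.01. *Ltbp1*, which stores latent TGFβ in the matrix, rose as well, at 0.63 ± 0.086 (SD, n = 2, adjusted p = 0.000203). *Bmp7*, which opposes TGFβ-driven EMT in epithelia, had the lowest ratio of the list, at -0.37. With the methods' t-test *Tgfb2* (unadjusted p = 0.0706) and *Ltbp1* (unadjusted p = 0.0615) did not pass, which leaves 3 of this list.

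**Figure D4:**
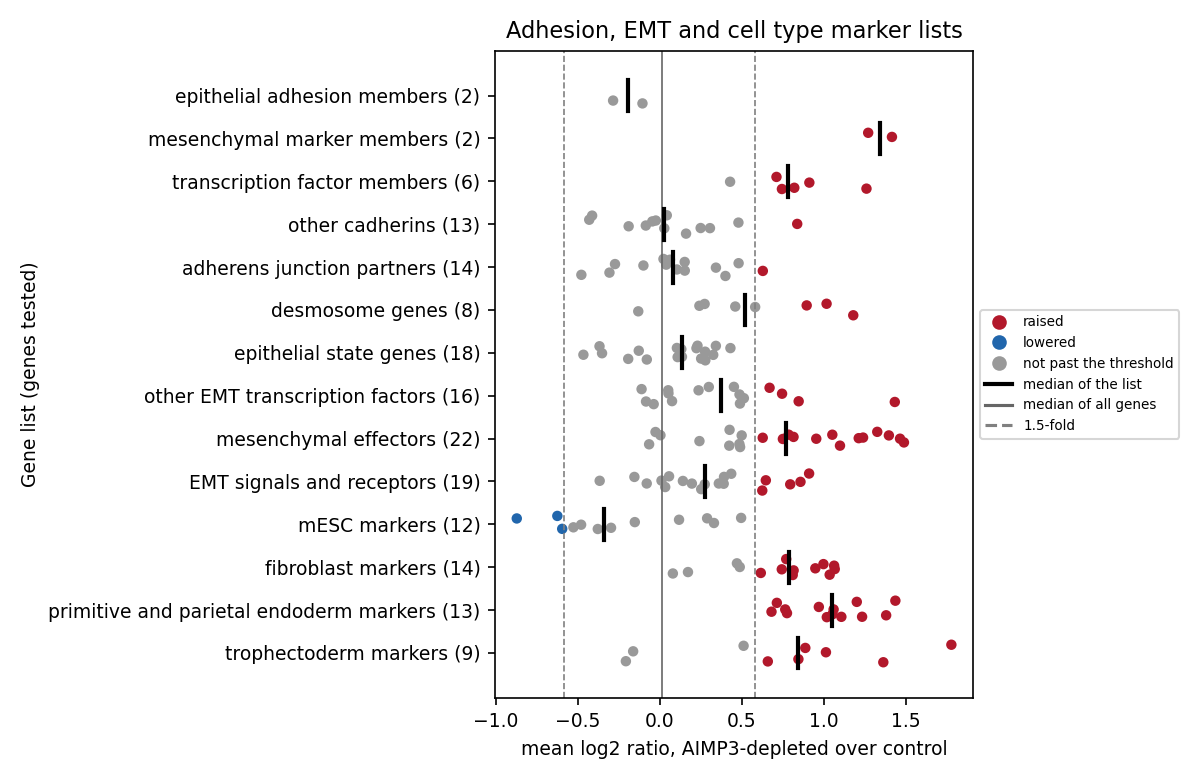
Mean log2 ratio of AIMP3-depleted over control (horizontal axis) of each tested gene in the gene lists (vertical axis, number of tested genes in brackets), in red where the gene rose, in blue where it fell and in grey otherwise; black ticks are list medians, the thin line is the median of all genes at 0.02 and dashed lines are 1.5-fold. The points of the endoderm markers are all red, as are 13 of 22 for mesenchymal effectors, 10 of 14 for fibroblast markers and 6 of 9 for trophectoderm markers, and those of the epithelial state genes are all grey. Of all tested genes 5.52% rose.

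Vimentin, N-cadherin and these transcription factors are also made by fibroblasts, endoderm and other differentiated cells, so markers of such cells were read beside them. Of 15 fibroblast markers 14 were tested and 10 rose, a share of 71.4% beside 5.52% of all tested genes, with a median of 0.79. With the methods' t-test 7 rose. The markers were led by *Fbln2* at 1.07, *Col1a1* at 1.06 and *Col1a2* at 1.04, while *Thy1* at 0.17 and *Col6a2* at 0.08 did not pass. Their summed level, in linear intensity, was 27164 and 27779 in the control pool and 49960 and 51036 in the AIMP3-depleted replicates, 1.84-fold higher on both arrays. Such a sum follows its brightest probes, here *Col1a1*, without which it was 1.76-fold and 1.75-fold higher. In the control pool 13 of these 14 were well above background on both arrays, so genes of this list were detected there too. Which cells made these transcripts was not measured.

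All 13 markers of primitive and parietal endoderm were tested and all 13 rose, where 5.52% of all tested genes rose. With the methods' t-test 10 rose, without *Foxa2*, *Gata4* and *Dab2*. The markers had a median of 1.05, led by *Sox17* at 1.44, *Foxa2* at 1.38 and *Col4a1* at 1.24. Their summed level was 1.90-fold and 1.84-fold higher in the AIMP3-depleted replicates, and 2.10-fold and 2.05-fold higher without *Lamb1*, its brightest gene. That second sum still holds *Lama1*, whose mean control level of 15.21 was close to the 15.40 of *Lamb1* on the log2 scale. It too thus follows a bright gene. Of 10 trophectoderm markers 9 were tested and 6 rose, a share of 66.7% beside 5.52% of all tested genes. With the methods' t-test 5 rose. The markers had a median of 0.85, led by the keratins *Krt18* at 1.78, *Krt8* at 1.36 and *Krt7* at 1.01. Their summed level was 2.77-fold and 2.87-fold higher, but *Krt18* alone made up 65.5% and 67.1% of it in the control pool, and without *Krt18* it was 1.59-fold and 1.63-fold higher. The trophoblast factors *Eomes* at -0.16 and *Tfap2c* at -0.21 did not pass and *Elf5* was not bright enough to be tested. The label of the cells was checked against 12 mESC markers, all of which were well above background in control and depleted cells alike. Of these 0 rose and 3 fell, where 5.52% of all tested genes rose and 0.791% fell. Those that fell were *Fgf4* at -0.87, *Dppa3* at -0.62 and *Tdgf1* at -0.59, and the median of the 12 was -0.34. With median centring 0 fell and 1 rose, and the median was -0.05. By adjusted p at any fold 8 of the 12 were lower and 3 higher, beside 23.7% and 30.6% of all tested genes. The 3 higher ones were *Dppa5a* at 0.50, *Tfcp2l1* at 0.33 and *Klf2* at 0.29. Among the 8 lower ones were *Sox2* at -0.53, *Pou5f1* at -0.48 and *Nanog* at -0.38, with *Nanog* at 0.06 on its other probe. The summed level of the 12 markers differed by 1.02-fold and 1.00-fold, but *Dppa5a* made up 40.6% and 40.8% of it in the control pool. Without *Dppa5a* the sum in the AIMP3-depleted replicates was 0.75 and 0.73 of that in the control pool. The summed levels of fibroblast, endoderm and trophectoderm markers thus moved in the same direction as *Vim*, *Cdh2* and the transcription factors. Their part in the rise of these genes was not tested.

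The 7 genes that rose did so in each of the 8 ways of processing the signals, the reported one included. Not all of these are separate checks. Both other probe filters left the ratios of the 10 genes as they were, and the mean of a gene's probes moved *Cdh2* alone. The deposited table nearly repeats the processed signals plus a constant. The mean log2 ratio of *Vim* ran from 1.42 to 1.72, *Cdh2* ran from 1.23 to 1.49 and *Zeb2* from 1.24 to 1.68. *Snai2* ran from 0.91 to 1.28, *Twist2* from 0.82 to 0.98, *Snai1* from 0.74 to 0.93 and *Zeb1* from 0.70 to 0.89. Dim genes such as *Zeb2* and *Snai2* read highest in the deposited table, and the bright *Vim* read highest with median centring. At a 2-fold threshold *Vim*, *Cdh2* and *Zeb2* passed, 3 of the 10, beside 281 (1.17%) of all tested genes.

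**Figure D5:**
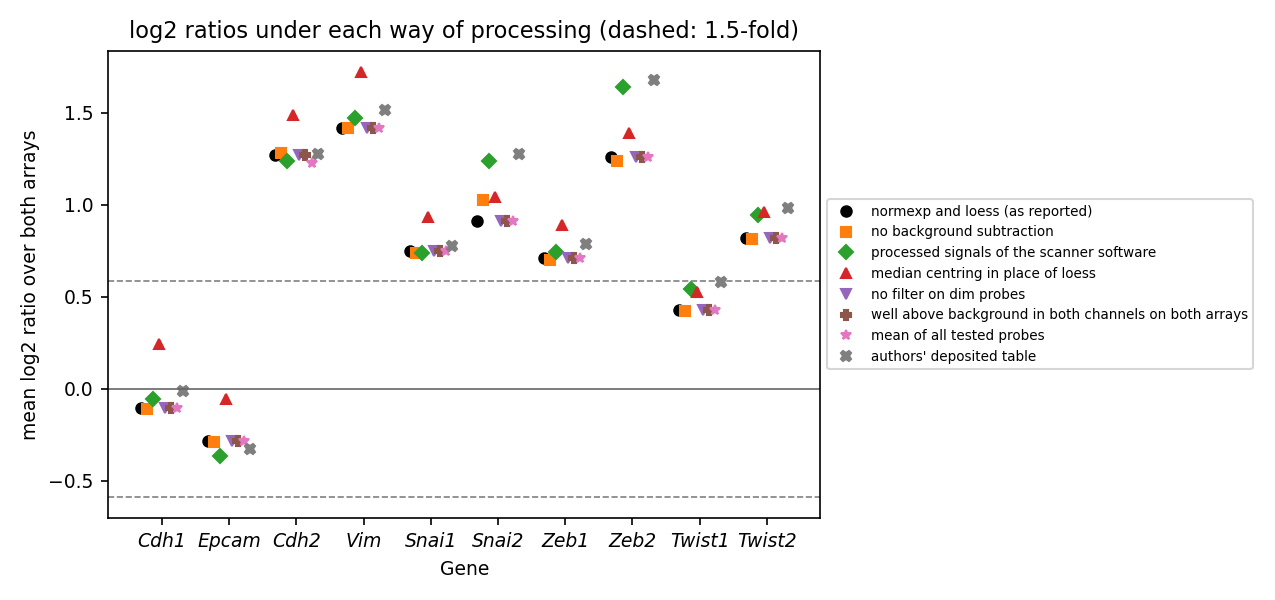
Mean log2 ratio of AIMP3-depleted over control (vertical axis) of the 10 genes (horizontal axis) under 8 ways of processing the same 2 arrays, 1 symbol each, with dashed lines at 1.5-fold. The symbols of the 7 genes that rose all lie above the upper line, *Cdh1* alone has symbols on both sides of 0, and the highest *Twist1* symbol lies just below the line. The symbols of both other probe filters repeat the reported values.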

How the data were processed

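Gene expression was measured on 2 two-colour Agilent mouse arrays. The authors deposited the scanner output, made with Feature Extraction (version 11.5.1.1 in the file header), with the intensity of each spot and its local background, not normalized, the software's processed signals and their log10 ratio. The value table that the authors deposited is on a log2 scale, and its ratios equalled the log2 ratio of the processed signals plus a constant of 0.040 and 0.039 within 0.01 for 99.7% of 55681 probes on each array. Its column medians were 0.091 and 0.111, and positive values are higher in AIMP3-depleted cells. All its columns of per-sample values were used and 0 left out.

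Median spot signals were corrected with normexp (offset 50) and normalized by loess within each array, with control spots at weight 0. Spots flagged as outliers (215 and 227) were dropped, and repeated spots were averaged. A probe was tested if, on each of the 2 arrays, Cy3 or Cy5 was well above background, and the brightest probe stands for a gene. Levels per channel are after an additional Aquantile step between arrays. The mean ratio was compared with 0 by lmFit and eBayes in limma 3.58.1 in R 4.3.3 (1 residual and 5.24 prior degrees of freedom), with Benjamini-Hochberg adjustment over 24021 genes. The dyes and conditions come from the labels. Of spots that were not controls 31014 carried an accession in the RefSeq table of GRCm38.p6, and 14974 tested genes have a RefSeq name. That table and its promoter windows are not of the array's own build and were used for names and promoter sequence.

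All 10 genes, *Eef1e1* and, of each list, the genes past the threshold (the 3 with the largest changes in each direction where a list held more than 6, and up to 3 in each direction of a marker list) were named by rule, and other list genes were named after their values were seen. The 10 genes and all lists were chosen with earlier results of these data known. The alternatives were the processed signals, signals without background subtraction, median centring for loess, all probes or only those bright in both channels, the mean of a gene's probes, the deposited table, other thresholds, the methods' t-test and each replicate left out. The steps were tested on simulated data.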

Additional observations from a re-analysis of the deposited data

How the results depend on the processing

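The 10 genes' ratios were recomputed 100 times in all over the alternatives, and 98 kept their direction and their side of the threshold, but only 61 differed at all from the reported value, since both other filters and the methods' t-test leave the ratios as they are and the mean of a gene's probes moves *Cdh2* alone. The exceptions were *Cdh1*, which came to 0.24 with median centring, and *Snai2*, which missed the threshold with the methods' t-test, as did *Tgfb2*, *Ltbp1*, *Foxa2* and *Tdgf1* among the list genes named. The median of the other cadherins turned to -0.093 with the processed signals and -0.053 in the deposited table. It was -0.044 without the filter on dim probes and -0.012 without background subtraction. The cause was not tested. Of all genes, 1327 rose and 190 fell, so that 87.5% of changed genes rose. With the processed signals 1944 rose and 776 fell (71.5% rose), with median centring 2823 rose and 65 fell (97.7%), and with the deposited values 2130 rose and 617 fell (77.5%). At 2-fold 3 of the 10 genes rose, and of all genes 281 (1.17%) rose and 17 fell. By adjusted p at any fold 8 of the 10 genes were higher and 1 lower, and of all genes 7340 were higher and 5690 lower. With the methods' t-test 864 of all genes (3.60%) rose and 128 fell, with 6 of the 10 among the risers. After Benjamini-Hochberg adjustment 0 of all genes passed, where 5880 had an unadjusted p under 0.05 by that test. Limma's adjusted p passed the 7340 and 5690 given above. Without 1 replicate, judged by fold alone, the 10 genes gave 7 rises and 0 falls either way, and all genes gave 1323 to 1398 rises and 200 to 253 falls, with *Eef1e1* at -0.90. No paired analysis was possible because 1 control pool served both arrays. Signal over background, between 2.68 and 3.31, limits what dim genes such as *Twist1*, *Snai2* and *Zeb2* can show.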
